A study of Mus musculus with 8 samples.

Results

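Pvalb, Calb1, Calb2, Ncald, Hpca and Vsnl1 encode EF-hand calcium-binding proteins that serve as markers of neuron classes. These 6 genes were taken by symbol from a table of 56576 genes, and each symbol had 1 row. Their normalized counts were compared in RNA bound to tagged ribosomes of interneurons, isolated from synaptosomes (pinched-off synaptic terminals) of mouse neocortex at postnatal day 15. The 4 control libraries came from Lhx6-Cre;ErbB4+/+;Rpl22HA/HA mice and the 4 mutant libraries from Lhx6-Cre;ErbB4F/F;Rpl22HA/HA mice, so that controls also carried Cre and the ribosomal tag. Lhx6-Cre is active in cells of the medial ganglionic eminence (MGE) and preoptic area lineages, which give rise to the interneurons that express parvalbumin (PV) or somatostatin (SST). The comparison asks which synaptic ribosome-associated transcripts differ when these cells lack ErbB4, a receptor tyrosine kinase for neuregulins. Reads on genes ran from 51010687 to 80226984 per library.

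An EF hand is a helix-loop-helix fold whose short loop wraps around a calcium ion. Parvalbumin, calbindin (Calb1) and calretinin (Calb2) act largely as buffers, and they bind calcium that enters during activity and shape how long it stays free. Hippocalcin (Hpca), neurocalcin delta (Ncald) and visinin-like 1 (Vsnl1) are neuronal calcium sensors with a fatty acid tail that is exposed when calcium binds, which moves them to membranes. In cortex, parvalbumin marks fast-spiking basket and chandelier cells, calbindin is found in many SST cells and in some pyramidal cells, and calretinin marks some SST cells and many interneurons born in the caudal ganglionic eminence (CGE). The 3 sensors are also made by excitatory neurons, so they are less specific to interneurons.

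The calcium-binding loop is the feature that the 6 coding sequences share, and it is shown here for each gene as the first match to the PROSITE EF-hand loop pattern that lies within a single exon. The stretches were read from GENCODE transcripts on mm10, 5′ to 3′ on the coding strand, and capitals mark the codons of the first and last residue of the loop.
Pvalb: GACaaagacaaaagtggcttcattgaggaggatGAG
Calb1: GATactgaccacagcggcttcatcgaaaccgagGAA
Calb2: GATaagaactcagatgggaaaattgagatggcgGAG
Ncald: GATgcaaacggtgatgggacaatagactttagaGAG
Hpca: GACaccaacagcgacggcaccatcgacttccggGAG
Vsnl1: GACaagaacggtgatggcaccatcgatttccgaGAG
The Pvalb loop lies in coding exon sequence of exon 2 (chr15:78202526-78202561, minus strand) and the Calb1 loop in exon 5 (chr4:15895644-15895679, plus strand). The Calb2 loop lies in exon 3 (chr8:110154653-110154688, minus strand) and the Ncald loop in exon 5 (chr15:37397183-37397218, minus strand). The Hpca loop lies in exon 4 (chr4:129118490-129118525, minus strand) and the Vsnl1 loop in exon 3 (chr12:11332127-11332162, minus strand). The pattern matched 2 times in Pvalb, 4 times in Calb1, 5 times in Calb2 and 3 times in each of the sensors. Among 21549 coding genes scanned in the same way, 1.00% held at least 1 match and 0.450% at least 2. Over their aligned coding bases Hpca and Ncald were 78.6% identical, Hpca and Vsnl1 72.7%, Ncald and Vsnl1 71.1%, Pvalb and Calb2 69.7%, Pvalb and Calb1 65.7%, and Calb1 and Calb2 65.1%.

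Erbb4, the targeted gene, had normalized counts of 1640, 5377, 4306 and 3034 in controls 1, 3, 4 and 5, and 1711, 1648, 1233 and 1048 in mutants 2, 3, 4 and 5. The library labelled control replicate 1 thus lay within the range of the mutants. Calls of single markers in the cell type lists below, apart from Lhx6, are given with all 8 libraries only. In these bulk libraries, fewer cells of a type and less RNA per cell cannot be told apart.

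All 6 genes had a log2 fold change below 0 in mutants, as had 46.6% of the 31171 genes tested. Pvalb, Hpca and Vsnl1, 3 of the 6, were called lower, which required an unadjusted p of 0.05 or less in limma and a change of 1.5-fold or more. Across all genes tested 3.17% were called lower, 3.98% higher and 7.15% in either direction. The median log2 fold change was -0.87 over the 6 genes and 0.055 over all genes tested. This direction depended on the scaling. Pvalb was lower under every scaling tried, but Ncald lay above 0 when each library was centred on its MGE interneuron markers, and the 5 genes other than Pvalb lay above 0 when it was centred on PV interneuron markers. None of the 6 passed Benjamini-Hochberg adjustment in limma, where the adjusted p was 0.58 for Pvalb, Calb1, Hpca and Vsnl1, 0.62 for Calb2 and 0.75 for Ncald. Over all genes, 14 (0.0449%) had an adjusted p under 0.05 in limma and 2596 an unadjusted p of 0.05 or less.

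**Figure D1:**
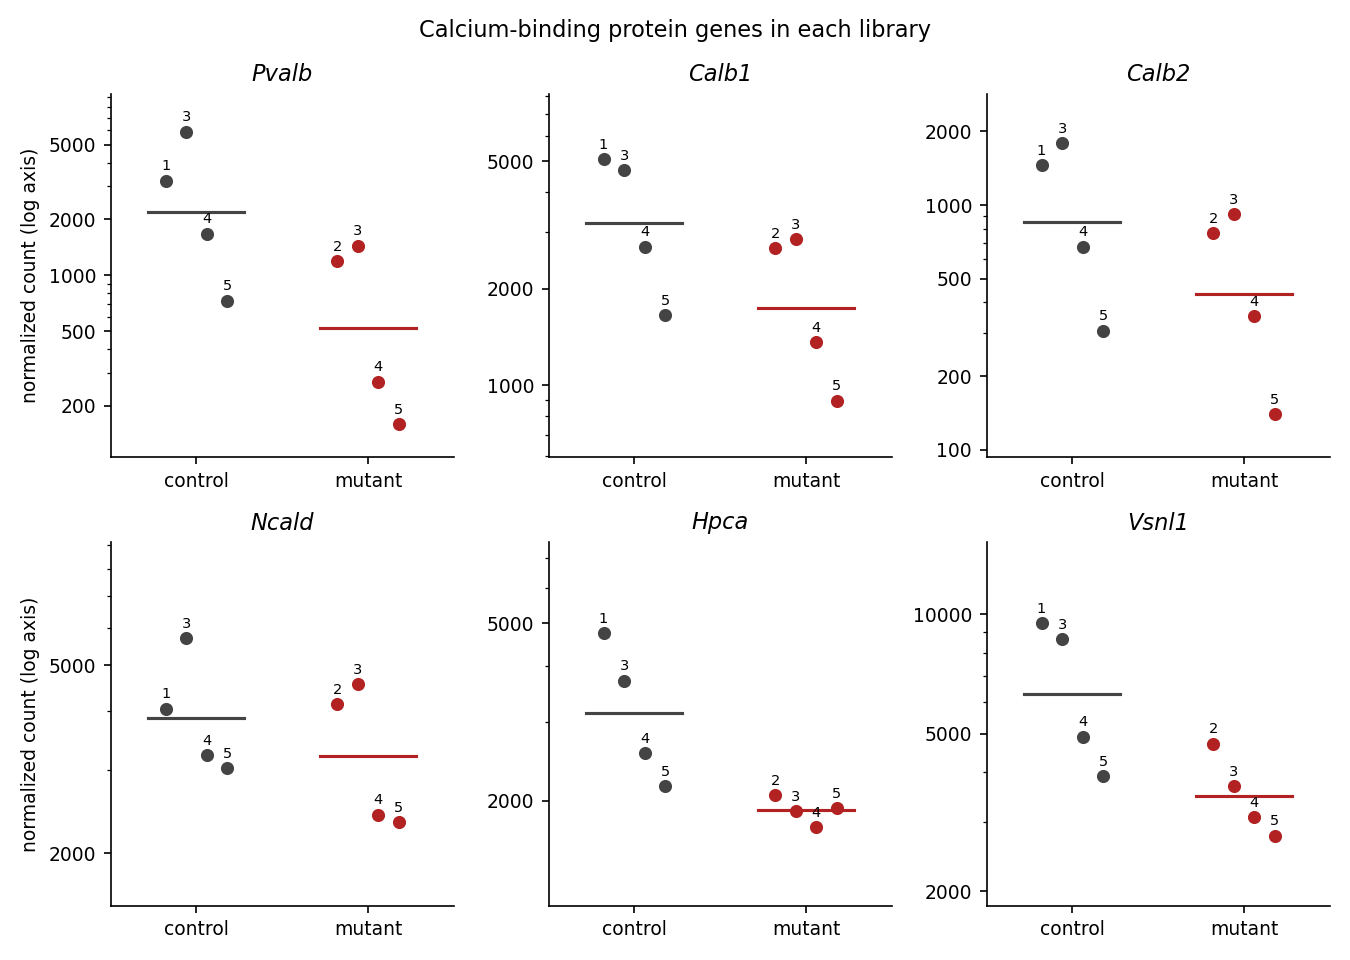
Normalized counts (log axis) of the 6 genes in 4 control libraries (grey) and 4 mutant libraries (red), with each library's replicate number and a bar at the geometric mean. The genotypes are separate only for Hpca, where the lowest control is at 2156 and the highest mutant at 2060.

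Among the buffers, Pvalb (GSMG0014211, chromosome 15, 78191114 to 78206400 of mm10) had the largest fold change of the 6. Its normalized counts were 3219, 5896, 1674 and 730 in controls 1, 3, 4 and 5. In mutants 2, 3, 4 and 5 they were 1188, 1439, 269 and 159. Control 3 was the highest library and mutants 4 and 5 the lowest, and the genotypes overlapped because control 5 lay below mutants 2 and 3. The control mean was 2880 ± 2257 (SD, n = 4) and the mutant mean 764 ± 645 (SD, n = 4). The log2 fold change was -2.08 with a standard error of 0.78 and a 95% confidence interval from -3.78 to -0.37 (limma, unadjusted p = 0.022). A two-sided exact permutation test of the log2 values gave p = 0.11, and with 4 libraries in each genotype this test cannot go below 0.029. The limma call was lost without control 1 (log2 fold change -1.89, unadjusted p = 0.056) and without control 3 (-1.60, unadjusted p = 0.072). It was likewise lost without mutant 4 (-1.76, unadjusted p = 0.060) and without mutant 5 (-1.51, unadjusted p = 0.064). Without the mean-variance trend limma gave an unadjusted p = 0.055. Within a genotype Pvalb varied more than any other of the 6, by 8.08 times between the highest and lowest control and 9.06 times between the highest and lowest mutant.

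Calb1 (GSMG0026306, chromosome 4, 15881262 to 15908064) had 5078, 4689, 2703 and 1650 normalized counts in controls 1, 3, 4 and 5 and 2678, 2849, 1362 and 894 in mutants 2, 3, 4 and 5. Controls 1 and 3 lay above all mutants, but control 5 lay below mutants 2 and 3. The log2 fold change was -0.88 with a standard error of 0.44 (limma, unadjusted p = 0.071; exact permutation p = 0.14), so Calb1 did not pass. It passed without control 5 (log2 fold change -1.20, limma, unadjusted p = 0.017), without mutant 2 (-1.08, unadjusted p = 0.044) and without mutant 3 (-1.11, unadjusted p = 0.037), and with library weights (-0.96, unadjusted p = 0.028).

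Calb2 (GSMG0038910, chromosome 8, 110137502 to 110168213) had 1452, 1786, 675 and 307 normalized counts in the same controls and 768, 918, 352 and 140 in the mutants. Control 5 was lower than 3 of the 4 mutants, so the genotypes were interleaved. The log2 fold change was -0.99 with a standard error of 0.66 (limma, unadjusted p = 0.16; exact permutation p = 0.31). When control 5 was left out it passed (-1.48, limma, unadjusted p = 0.038). The controls alone ranged over 5.82 times and the mutants over 6.56 times.

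Among the sensors, Hpca (GSMG0028387, chromosome 4, 129111571 to 129121925) was the only gene of the 6 whose genotypes did not overlap, while 2.17% of all genes tested had every mutant below every control. Its normalized counts were 4746, 3714, 2559 and 2156 in controls 1, 3, 4 and 5 and 2060, 1898, 1747 and 1925 in mutants 2, 3, 4 and 5. Mutants were close to each other, with a range of 1.18 times, while controls ranged over 2.20 times. The log2 fold change was -0.72 with a standard error of 0.25 (limma, unadjusted p = 0.015), and the exact permutation p of 0.029 is the smallest that this design gives. Without control 1 it was -0.52 (limma, unadjusted p = 0.037), which no longer reached a fold change of 1.5. It also fell short of that fold with library weights (-0.53) and with total reads scaling (-0.54).

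Vsnl1 (GSMG0008700, chromosome 12, 11325247 to 11436613) had 9504, 8658, 4909 and 3908 normalized counts in the controls and 4712, 3680, 3074 and 2762 in the mutants. Only control 5 lay inside the range of the mutants, below mutant 2. The log2 fold change was -0.86 with a standard error of 0.30 (limma, unadjusted p = 0.017; exact permutation p = 0.057). Without control 3 it was -0.70 and did not pass (limma, unadjusted p = 0.053).

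Ncald (GSMG0065043, chromosome 15, 37366175 to 37792428) had 4052, 5702, 3226 and 3025 normalized counts in the controls and 4143, 4561, 2416 and 2325 in the mutants. Mutants 2 and 3 were higher than 3 of the 4 controls. The log2 fold change was -0.27 with a standard error of 0.29 (limma, unadjusted p = 0.37; exact permutation p = 0.49), and its 95% confidence interval ran from -0.91 to 0.36.

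Read counts of different genes can be compared only per length, taken here as the longest GENCODE transcript of each gene in kb. On that scale of normalized counts per kb, Vsnl1 was first of the 6 in 3 of 4 controls and in all 4 mutants, at a control mean of 3544 ± 1445 (SD, n = 4) and a mutant mean of 1869 ± 452 (SD, n = 4). Pvalb had rank 1 in control 3, rank 2 in controls 1 and 4 and in mutants 2 and 3, rank 4 in control 5 and rank 5 in mutants 4 and 5. Its level per kb averaged 2948 ± 2311 (SD, n = 4) for controls and 782 ± 660 (SD, n = 4) for mutants. In controls Hpca followed at 1783 ± 634 per kb and then Ncald at 1072 ± 326. In mutants the means of Hpca (1033 ± 69.4) and Ncald (900.4 ± 310.1) were above that of Pvalb. Calb1, at 836 ± 386 in controls, and Calb2, at 737 ± 477, had the lowest control means. Calb2 was the lowest of the 6 in every mutant. In controls the ranges of every 2 neighbours in this order of means overlapped. The length of the constitutive regions that were counted is not known, so this order is approximate.

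In each genotype the libraries numbered 4 and 5 had the lowest counts of Pvalb, Calb1, Calb2, Ncald and Vsnl1, and for Hpca this held in controls but not in mutants. The same libraries had the most genes with a read, 32709 and 32714 in controls 4 and 5 against 28247 and 31141 in controls 1 and 3. In mutants 4 and 5 the number was 34364 and 33670, against 32151 and 31510 in mutants 2 and 3. The study sequenced its samples in 2 batches, but no label says which library was in which, and the part of batch in these differences was not tested. After subtraction of each genotype's mean, the log2 counts of Pvalb correlated with those of Calb1 at r = 0.97, of Calb2 at 0.97 and of Ncald at 0.97 over 8 libraries, and with those of Hpca at 0.59. These correlations share libraries and size factors and are given as a description.

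Since several of these levels varied in parallel from library to library, Pvalb was also expressed relative to each of the others within the library, a comparison chosen after the values were seen. The ratio of Pvalb to Calb2 was 2.22, 3.30, 2.48 and 2.38 in controls 1, 3, 4 and 5, and 1.55, 1.57, 0.76 and 1.13 in mutants 2, 3, 4 and 5. Every control was above every mutant. The log2 difference of the ratio was -1.09, with an exact permutation p of 0.029 before correction for 5 such comparisons, the smallest this design can give. The ratio to Calb1 was 0.74 ± 0.36 (SD, n = 4) in controls and 0.33 ± 0.17 in mutants (exact permutation p = 0.086), and the ratio to Ncald was 0.65 ± 0.34 and 0.20 ± 0.12 (exact permutation p = 0.086). Relative to Hpca and to Vsnl1 the exact permutation p was 0.20 in both cases, with log2 differences of -1.35 and -1.22. With 5 comparisons, no difference passes a correction for their number in a design whose smallest p is 0.029.

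**Figure D2:**
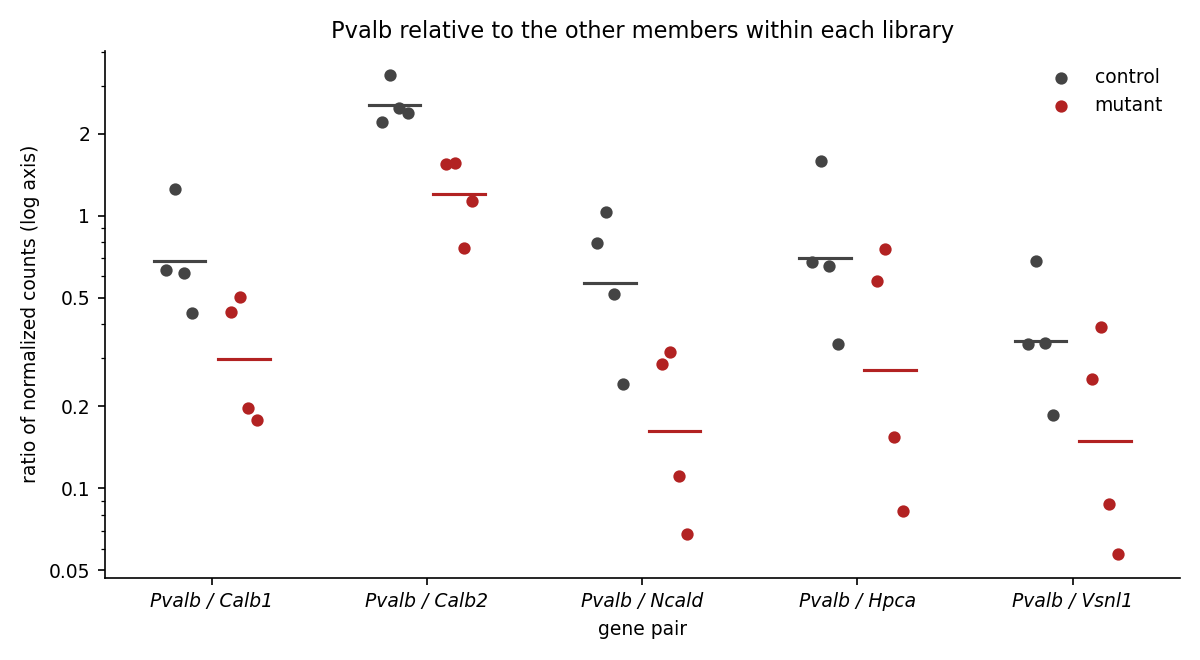
Ratio of the normalized count of Pvalb to that of each of the other 5 genes (log axis) in 4 control libraries (grey) and 4 mutant libraries (red), with bars at geometric means. Control and mutant libraries are separate for the ratio to Calb2, with controls from 2.22 to 3.30 and mutants from 0.76 to 1.57, and overlap for the other ratios.

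The cells that carry the tag were checked by their markers. Of 13 markers of MGE-derived interneurons, 13 had a log2 fold change below 0 and 2 were called lower (Gad1 and Gad2), with a median of -0.69. The summed count of the list was 151188, 347689, 213333 and 103892 in controls 1, 3, 4 and 5 and 162533, 170676, 68371 and 50377 in mutants 2, 3, 4 and 5. No marker of the list was at 0. Lhx6, which drives Cre, had a log2 fold change of -0.69 (limma, unadjusted p = 0.055), and Rpl22, the tagged ribosomal gene, one of -0.47 (unadjusted p = 0.18), or -0.20 without control 1. In limma, Lhx6 passed without control 5 (-0.93, unadjusted p = 0.011), without mutant 2 (-0.80, unadjusted p = 0.048) and without mutant 3 (-0.83, unadjusted p = 0.037), and with library weights (-0.83, unadjusted p = 0.013). DESeq2 also called it lower (-0.70, unadjusted p = 0.046). Centred on this list in each library, Pvalb stayed lower at a log2 fold change of -1.41 (limma, unadjusted p = 0.020). Calb1 was then at -0.22, Calb2 at -0.32, Hpca at -0.059 and Vsnl1 at -0.19, none of which passed, and Ncald was at 0.39. Erbb4, the targeted gene, was called lower with the deposited factors (-1.25, limma, unadjusted p = 0.0041). It lost its call under this centring (-0.58, unadjusted p = 0.18). The same centring moved the median of all genes from 0.055 to 0.72, and 3383 of 3432 calls were then higher. How far the level of interneuron RNA accounts for the lower counts was not tested.

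**Figure D3:**
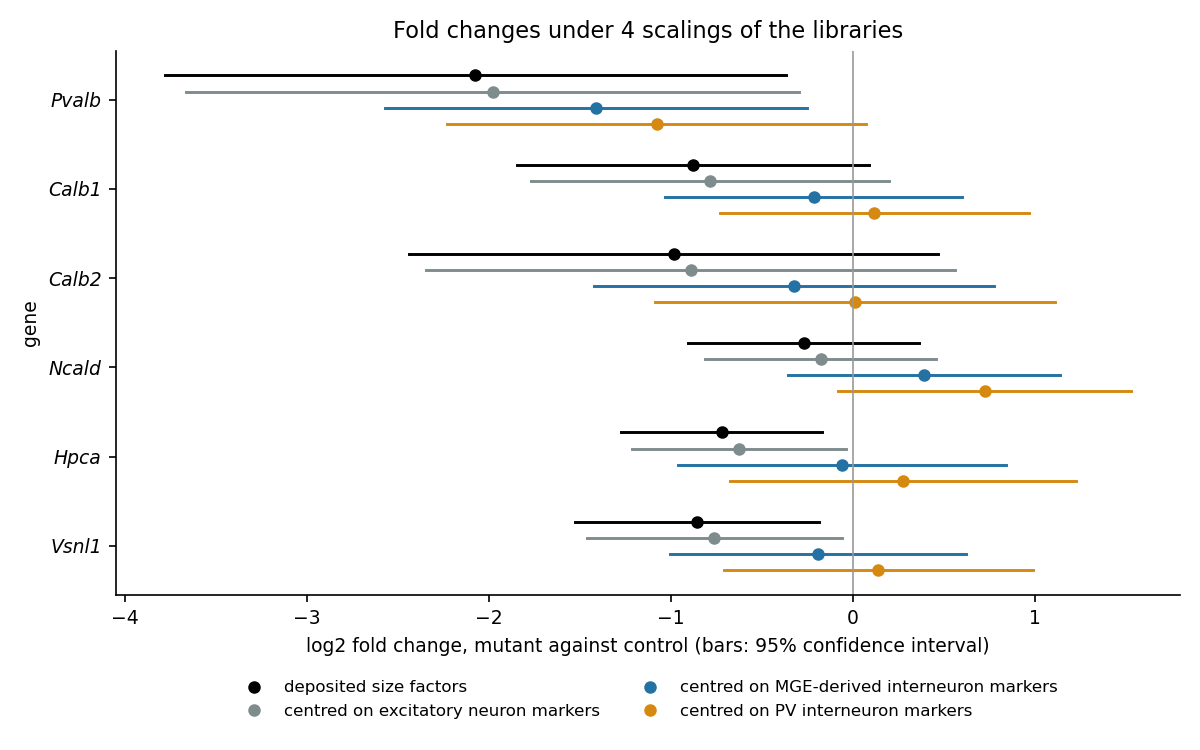
Log2 fold changes of the 6 genes in mutants against controls under 4 scalings, with 95% confidence intervals from limma. Pvalb stays below 0 under all 4 scalings, at -2.08, -1.98, -1.41 and -1.08, while Ncald lies at -0.27 with the deposited factors and at 0.39 and 0.72 when centred on interneuron lists.

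Markers of PV cells other than Pvalb had their lowest sums in mutants 4 and 5. All 11 had log2 fold changes below 0, 5 of them were called lower (Syt2, Kcnc1, Kcnab3, Pthlh and Cplx1), and the median was -1.10. Their summed count was 112265, 176105, 78043 and 42179 in controls and 67796, 65533, 29761 and 23920 in mutants, with the most counts in Cplx1 and no gene at 0. Centred on these markers, an alternative chosen after the data were seen, Pvalb had a log2 fold change of -1.08 that did not pass (limma, unadjusted p = 0.064). Calb1 and Calb2 were then at 0.12 and 0.0099, Hpca at 0.27 and Vsnl1 at 0.14. Erbb4 was at -0.25 and did not pass either (limma, unadjusted p = 0.59). Of 12 SST markers, 10 were below 0 and 1, Chodl, was called lower, with a median of -0.99 (-0.66 without control 3 and -0.55 without mutant 5). That median was -0.33 when centred on MGE interneuron markers and 0.0063 when centred on PV markers. The summed SST list was 348193, 602041, 197950 and 78951 in controls and 244769, 239548, 64079 and 24826 in mutants. Most of these counts were in Sst itself. Markers of CGE-derived interneurons, which Lhx6-Cre should not tag, had a median of -0.54 (-0.30 with library weights and -0.35 with total reads scaling) with 1 of 10 tested called lower (Crh). This direction turned with the scaling, since their median was 0.12 when centred on MGE interneuron markers and 0.46 when centred on PV markers. Their sum ran from 37277 to 82140 in controls and from 29178 to 53150 in mutants, with the most counts in Reln. Expression of these markers in cells that carry the tag was not tested, so the sum may hold RNA of tagged cells too. None of these 3 lists had a gene at 0.

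RNA of untagged cell types was present in all libraries. The excitatory list, led by Slc17a7, summed to 155282, 176575, 141174 and 172239 in controls and 124983, 138006, 135286 and 153869 in mutants. Its median log2 fold change was -0.18 (-0.092 without control 5 and 0.0019 with total reads scaling), with 1 of 12 called lower (Neurod6). Centred on that list, Pvalb was at -1.98, Hpca at -0.63 and Vsnl1 at -0.76, and all 3 kept their calls. The oligodendrocyte list, led by Mbp, was highest in control 1 at 666183, against 227901 to 358138 in the other controls and 198772 to 284492 in mutants. Its median was -0.62 (-0.34 without control 1 and -0.27 with library weights) and 3 of 10 were called lower (Mog, Mag and Opalin). The list of endothelial and mural cells, led by Cldn5, went the other way, with a median of 0.53 and 4 of 10 called higher (Flt1, Tek, Kdr and Pdgfrb). Its sum was 220100, 340763, 259653 and 222592 in controls and 342103, 322647, 332626 and 325337 in mutants. Astrocyte markers, led by Aldoc, had a median of -0.11 (-0.00099 without control 1, -0.20 without control 4 and -0.053 without mutant 2) and summed to 139182 to 243593 in controls and 146836 to 165683 in mutants. Oligodendrocyte precursor markers, led by Olig1, had a median of -0.038 and sums of 32212 to 38910 and 32650.7 to 33826. That median ran from -0.14 without control 5 to -0.012 without mutant 5, moved by over 1.5 times when any library except mutant 4 was left out, and was -0.12 with edgeR and -0.14 with DESeq2. Neither median has a fixed sign, since library weights put astrocytes at 0.046, total reads scaling put them at 0.073 and precursors at 0.14, and excitatory centring put precursors at 0.056. Microglia markers, led by Csf1r, had a median of -0.44 (-0.23 without control 1, -0.72 without control 4, -0.15 with library weights and -0.26 with total reads scaling) and sums of 27470.3 to 55473 and 28393 to 33841. Centring on MGE or PV interneuron markers put the medians of all 6 of these lists above 0. No astrocyte, precursor or microglia marker was called, and no marker of any of these lists was at 0 in all libraries. The part of such RNA in the differences in Hpca, Vsnl1 and Ncald, which excitatory neurons also express, was not tested.

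**Figure D4:**
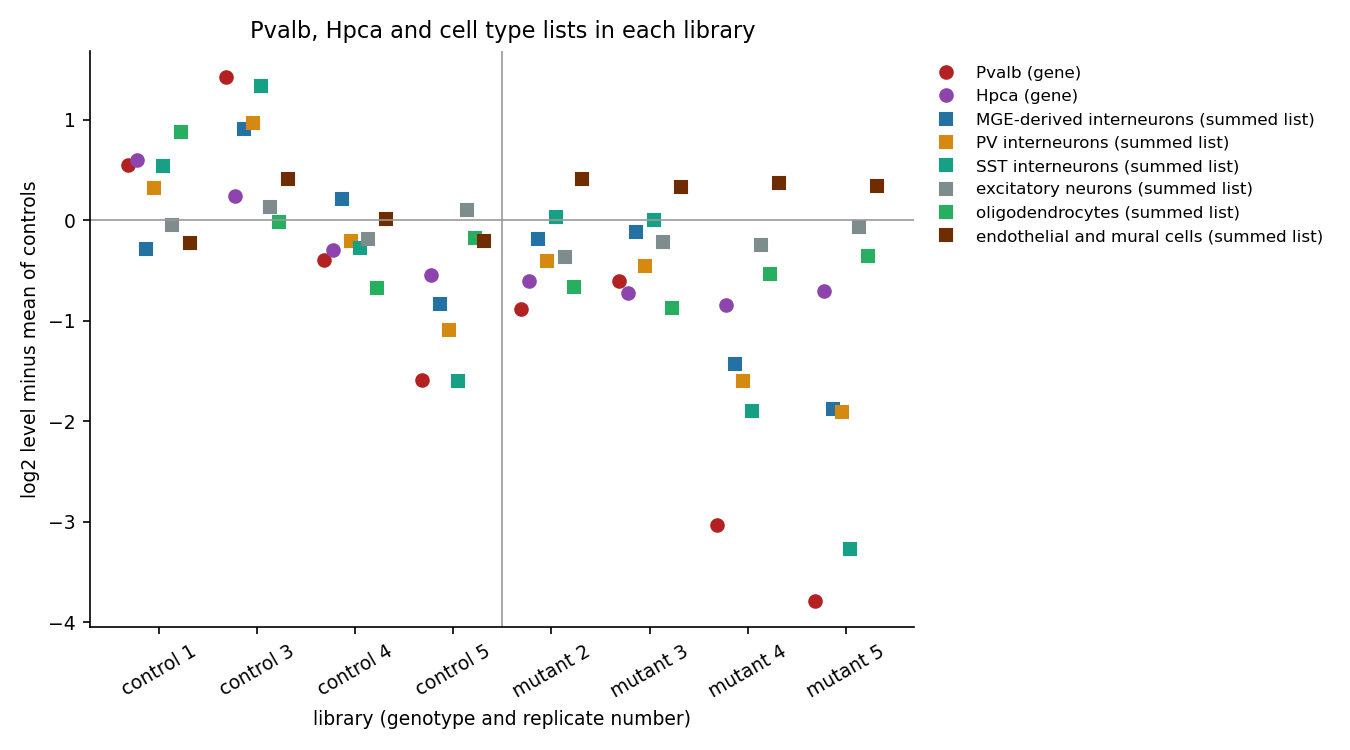
Log2 level of Pvalb and Hpca (circles) and of the summed counts of 6 cell type lists (squares) in each library, minus the mean of the 4 controls. Pvalb and the interneuron lists are lowest in mutants 4 and 5, while the excitatory list varies little and the endothelial and mural list is above the mean of controls in all 4 mutants.

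The 6 genes belong to a larger list of 61 EF-hand genes, of which 57 passed the filter on low counts. Besides the 6, 51 of 55 were tested, 4 were called lower and 1 higher (3.17% and 3.98% over all genes), 42 had a log2 fold change below 0 (46.6% over all genes), and the median was -0.43 (-0.25 without control 1, -0.20 with library weights and -0.24 with total reads scaling). Under centring on MGE-derived or on PV interneuron markers the medians of the whole list turned positive. Among calcium buffers the others were nearly silent. Scgn (secretagogin) had 101 normalized counts in control 3 and 0 in the other 7 libraries, while Ocm (oncomodulin) and S100g (calbindin-D9k) stayed under the filter. The sensors, 12 of 13 tested, had a median of -0.42 (-0.26 without control 1 and -0.24 with total reads scaling) with Hpca and Vsnl1 as the only calls. Their median was 0.24 when centred on MGE interneuron markers and 0.58 when centred on PV markers. Hpcal4 had the most counts among them and a log2 fold change of -0.27 (limma, unadjusted p = 0.19), while Ncs1, which regulates exocytosis, was at 0.088 (unadjusted p = 0.83).

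Of the calmodulins and CaBPs, 2 of 10 were called lower, Cabp7 and Necab2, and the median was -0.48 (-0.32 with library weights and -0.30 with total reads scaling). That median was 0.18 when centred on MGE interneuron markers and 0.51 when centred on PV markers. Cabp7, a calmodulin-like protein of the Golgi and lysosomes, had 376, 748, 689 and 955 normalized counts in controls 1, 3, 4 and 5 and 277, 331, 526 and 204 in mutants 2, 3, 4 and 5. Its log2 fold change was -1.05 (limma, unadjusted p = 0.017), and control 1 lay below mutant 4. The limma call was lost without control 5 (-0.87, unadjusted p = 0.054), without mutant 5 (-0.85, unadjusted p = 0.052) and under centring on MGE (-0.39) or PV markers (-0.059). Necab2, a neuronal protein that interacts with G protein-coupled receptors, had 975, 677, 647 and 625 in controls and 564, 312, 489 and 506 in mutants. The genotypes were separate, with a log2 fold change of -0.65 (limma, unadjusted p = 0.036), but the call was fragile. It was lost in limma without control 1 (-0.51, unadjusted p = 0.088), control 3 (-0.68, unadjusted p = 0.051), mutant 3 (-0.47, unadjusted p = 0.11) or mutant 4 (-0.68, unadjusted p = 0.055). It was also lost without trend, with library weights (-0.46), total reads scaling (-0.47) and excitatory centring (-0.56), and the value lay above 0 under MGE and PV centring (0.0099 and 0.34).

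No S100 gene was called among 9 tested of 10. Their median was -0.64 (-0.19 without control 1, -0.42 without control 3, -1.02 without control 4 and -0.089 with library weights), and S100a5 was at 0 in all 8 libraries. The S100 median was 0.025 when centred on MGE interneuron markers and 0.36 when centred on PV markers. S100b, which astrocytes and oligodendrocyte lineage cells make, had a log2 fold change of -0.69 (limma, unadjusted p = 0.15). Of 7 secretory pathway genes, only Nucb2 (nucleobindin 2) was called. Its counts were 4417, 2510, 1655 and 1649 in controls and 1050, 1473, 1253 and 1093 in mutants, with no overlap and a log2 fold change of -0.96 (limma, unadjusted p = 0.010). Without control 1 it was -0.65 and still passed, but not under MGE (-0.30) or PV centring (0.037). Of 15 enzyme subunits and other EF-hand genes, Pdcd6, a penta-EF-hand adaptor, was called lower and Chp2, a calcineurin-like protein, higher. Pdcd6 had 3936, 2835, 1380 and 1403 in controls and 1474, 990, 1324 and 1071 in mutants (log2 fold change -0.85, limma, unadjusted p = 0.030). Its limma call was lost without control 1 (-0.56, unadjusted p = 0.085), control 3 (-0.71, unadjusted p = 0.083), mutant 3 (-0.75, unadjusted p = 0.076) or mutant 5 (-0.79, unadjusted p = 0.065). It was also lost without trend, with library weights (-0.47), total reads scaling (-0.66), excitatory centring (-0.75) and MGE centring (-0.18), and the value was 0.15 under PV centring. Chp2 had 352, 425, 349 and 392 in controls and 487, 690, 729 and 766 in mutants, all above the controls (log2 fold change 0.80, limma, unadjusted p = 0.0083). Ppp3r1, the regulatory subunit of calcineurin, had the most counts in that group and was at -0.0046.

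**Figure D5:**
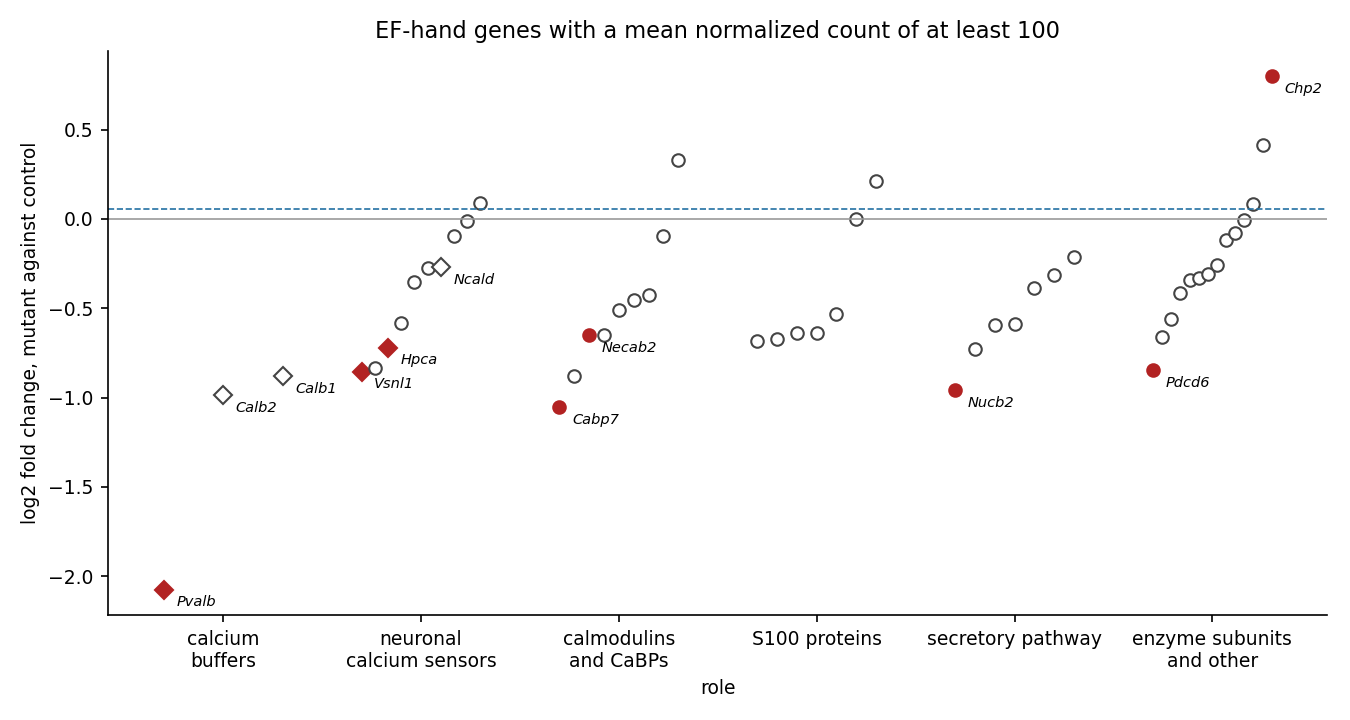
Log2 fold change of the 50 EF-hand genes whose mean normalized count was 100 or more, by role. Diamonds mark the 6 genes described here, filled red symbols those called (unadjusted limma p of 0.05 or less and 1.5-fold or more), and the dashed line the median of all genes tested, 0.055.

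Over the 8 libraries the genes whose log2 counts were most like those of Pvalb, among 13756 with a mean of at least 100, were Ccdc184 (Pearson r = 0.997), Gabrd, Tubb3 and Praf2 (each 0.996) and Slc7a4 (0.995). Gabrd, the delta subunit of the GABA-A receptor, had 39316, 48997, 25672 and 13607 normalized counts in controls and 20332, 23183, 6783 and 5388 in mutants. The 3 most like Calb1 were Jagn1, Cgref1 and Rtn1 (r = 0.998, 0.998 and 0.997). For Calb2 they were Npy, a neuropeptide of SST and other interneurons, Hrob and Tmem192 (0.995, 0.992 and 0.992). For Ncald they were Fibcd1, Arl10 and AI504432 (0.989, 0.989 and 0.988). For Hpca they were Nptx2, a secreted pentraxin, Tmem129 and Gpr108 (0.993, 0.989 and 0.988), and for Vsnl1 Hat1, Atp6v0e2 and Nkiras1 (0.996, 0.995 and 0.994). These values are a description, since the genes share libraries and genotypes.

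These differences rest on 4 libraries per genotype. The library kit does not mark strand, so reads from genes that overlap Ncald (5 in the table, the most abundant at a mean of 1121) or Vsnl1 (2, at most 457) cannot be told apart from their own.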

How the data were processed

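Per the labels, 4 control and 4 mutant libraries were analysed, and all 8 columns were matched to samples by name. The deposited signal is a table of normalized counts, made by the authors with STAR 2.4.0 on mm10, read counting over constitutive regions of Fast DB genes, and division by a DESeq2 size factor for each library. Dividing by the smallest value above 0 gave whole reads for 100% of values (tolerance 0.01), from 51010687 to 80226984 per library.

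Log2(normalized count + 1) was compared between genotypes by limma 3.58.1 with trend and without covariates (R 4.3.3), for genes whose mean reached 10 in either genotype. Fold changes on that scale understate the change of low genes. On the recovered reads edgeR 4.0.16 called 2279 genes and DESeq2 1.42.0 called 2834, against 2229 with limma. Other alternatives were the pseudocount, the filter, the model, library weights, scaling, centring on marker lists, a replicate block and leaving out each library. The procedure was tested on simulated data. The members and lists were chosen with earlier results of these data known.

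Named were the 6 genes, Erbb4, Rpl22, Lhx6, every called EF-hand gene, each list's gene with the most counts and genes at 0, and the genes with the highest Pearson r with each member (mean of at least 100; 5 for Pvalb, 3 for the others). Other EF-hand genes, called markers and relatives were named after their values were seen. Some genes that fall under these rules are not reported here. EF-hand loops were found by a pattern on codons of the longest coding transcript of each gene, and coding sequences were aligned globally with Biopython 1.88. Protein sequences were not used here.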

Additional observations from a re-analysis of the deposited data

Results flagged for a closer look

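Of 99 groups of 4 libraries checked, 2 held a library that stood well apart from its 3 companions. About 1 group in 20 does so by chance. Control 1 had 975 normalized counts of Necab2, against 625 to 677 in the other controls. Control 3 had 101 normalized counts of Scgn, which was at 0 in the other 3 controls and in all mutants.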

How the results depend on the processing

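Each of the 6 genes was refitted under 22 alternatives, 132 fits in all, and 126 kept a log2 fold change below 0. The call or its absence was kept in 106, lost in 13, gained in 7 and turned in direction in 6. Pvalb stayed below 0 in all 22. It lost its call in limma without trend (-2.08) and centred on PV interneuron markers (-1.08), and leaving out 1 library gave -2.60 to -1.51. Calb1 passed with library weights (-0.96), ranged from -1.20 to -0.56 without 1 library, and was at 0.12 centred on PV markers. Calb2 was at 0.0099 under that centring and from -1.48 to -0.45 without 1 library. Ncald was at 0.39 centred on MGE markers and 0.72 on PV markers, and from -0.44 to -0.086 without 1 library. Hpca lost its call with library weights (-0.53), total reads scaling (-0.54) and MGE centring (-0.059), was at 0.27 under PV centring, and ran from -0.90 to -0.52 without 1 library. Vsnl1 lost its call under MGE centring (-0.19), was at 0.14 under PV centring, and ran from -1.09 to -0.66 without 1 library. Rpl22 was at 0.20 and 0.53 under MGE and PV centring, Necab2 at 0.0099 and 0.34, and Lhx6, Nucb2 and Pdcd6 at 0.31, 0.037 and 0.15 under PV centring. The cause of these changes was not tested, though centring on a list that is itself lower in mutants raises every gene.

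Calls numbered 3630 with library weights (1633 lower, 1997 higher), 3432 with MGE centring (49 and 3383), 6939 with PV centring (32 and 6907), 14 at an adjusted p under 0.05 (14 and 0) and 354 at an unadjusted p of at most 0.01 (142 and 212). Lower calls were 1573 with DESeq2 and 490 with excitatory centring (1804 higher), and total reads scaling gave 415 lower and 2255 higher. Total reads scaling moved the median of all genes to 0.23 and PV centring to 1.05. Lower calls made up 44.3% of calls in limma, 55.5% with DESeq2, 15.5% with total reads scaling, 1.43% with MGE centring, 21.4% with excitatory centring and 0.461% with PV centring. Leaving out 1 library gave 1194 to 3767 calls, 515 to 1977 lower and 619 to 1792 higher.

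Numbers 3, 4 and 5 were used for a library of each genotype. Same-numbered libraries deviated together with correlations of only 0.10, 0.098 and 0.082, so the numbers were not taken as pairs. Correlations were also positive between controls 1 and 3 and mutants 2 and 3 (0.023 to 0.10). The same held between controls 4 and 5 and mutants 4 and 5 (0.082 to 0.098). All other pairs were negative (-0.12 to -0.029). The main limma fit had no term for this grouping, and its part in the p-values was not tested. Of 6 libraries with a shared number, 5 correlated best with their own number. With a replicate block 3164 genes were called, 1719 lower and 1445 higher. Pvalb (-2.29, limma, unadjusted p = 3.7e-05, adjusted p = 0.10) and Vsnl1 (-0.80, unadjusted p = 0.0049) then kept their calls. Calb1 (-0.86), Calb2 (-1.01) and Lhx6 (-0.81) passed with the block. Hpca (-0.56) fell short of the fold threshold, and Necab2 (-0.61) and Pdcd6 (-0.66) did not pass.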
